A study of Homo sapiens with 12 samples.

Results

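The genes described here are 10 feedback inhibitors of growth factor and MAP kinase signalling. They are the MAP kinase phosphatases DUSP1, DUSP4, DUSP5, DUSP6 and DUSP10, of which DUSP10 acts mainly on the stress kinases p38 and JNK. The others are the Sprouty genes SPRY1, SPRY2 and SPRY4, and the Sprouty-related genes SPRED1 and SPRED2. All were taken as a named list, and each is represented by its probe set with 1 gene symbol (the brightest by mean over all arrays where a gene has several). All 10 were found among the 18417 named genes of the array, with 1 probe set each. Expression was measured in EA.hy 926 cells, a human hybrid of umbilical vein endothelium and a lung carcinoma line. The first group, Lo pemetrexed, held cells adapted to 23 nM folic acid and exposed to 0.5 uM pemetrexed for 48 h, and Lo control held the same low-folate cells without the drug. Hi pemetrexed held cells kept in 9 uM folic acid, the usual level for this line, with the same exposure, and Hi control held those cells without the drug. Pemetrexed, an antifolate, blocks the synthesis of thymidylate and purines. Each group had 3 biological replicates and each replicate 1 array, 12 in all. All cultures had 10% serum and were confluent and 24 h in fresh medium when treatment began, and what the controls received in place of pemetrexed was not given in the sources used here. Lo cells were adapted in parallel to the Hi culture of the same line, so every Lo against Hi comparison also holds any other difference between these cultures. Levels are log2 values per total RNA of a culture, so fewer expressing cells and less RNA per cell cannot be told apart.

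Growth factor receptors activate ERK, the extracellular signal-regulated kinase, through Ras, Raf and MEK. Active ERK induces genes that switch it off again, and the genes described here include the best known of them. DUSP phosphatases remove phosphate from the activation loop of MAP kinases: DUSP6 acts on ERK in the cytoplasm, DUSP5 on ERK in the nucleus, DUSP1 and DUSP4 in the nucleus on ERK and the stress kinases p38 and JNK, and DUSP10 mainly on p38 and JNK. Sprouty proteins act between the receptors and Raf, and SPRED proteins bring the Ras inhibitor neurofibromin to the membrane. In endothelium this pathway carries the signals of vascular endothelial and fibroblast growth factors, and Sprouty proteins restrain vessel sprouting.

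Arrays labelled replicate 3 of both control groups stood apart from their groups, which touches several of the genes described here. On the first principal component, with 61.1% of the variance, the Lo pemetrexed arrays scored from 30.36 to 32.16 and the Lo control arrays labelled 1 and 2 scored 7.18 and 6.75. The Hi pemetrexed arrays and the Hi controls labelled 1 and 2 had scores between -20.05 and -17.77. Of the third controls, the one labelled Hi control 3 scored 8.94 and the array labelled Lo control 3 scored -19.27, each near the other culture. For 8 of the 10 genes the array labelled Hi control 3 lay nearer the other 2 Lo controls than the other 2 Hi controls, and for 5 of 10 the array labelled Lo control 3 lay nearer the other 2 Hi controls. Both arrays kept their labels, and results of the 10 genes are given with all 12 arrays and with the 10 left without them. The 2 arrays were singled out by their values in these data, so p-values with 10 arrays can be too small. Of the endothelial markers, PECAM1 averaged 12.30 ± 0.10 in Lo pemetrexed, 12.93 ± 0.38 in Lo control, 13.39 ± 0.08 in Hi pemetrexed and 13.14 ± 0.41 in Hi control cells (SD, n = 3 each). The leukocyte marker PTPRC lay between 4.05 and 4.21 on all arrays. Detection limits are unknown, and levels of different genes are not compared.

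**Figure D1:**
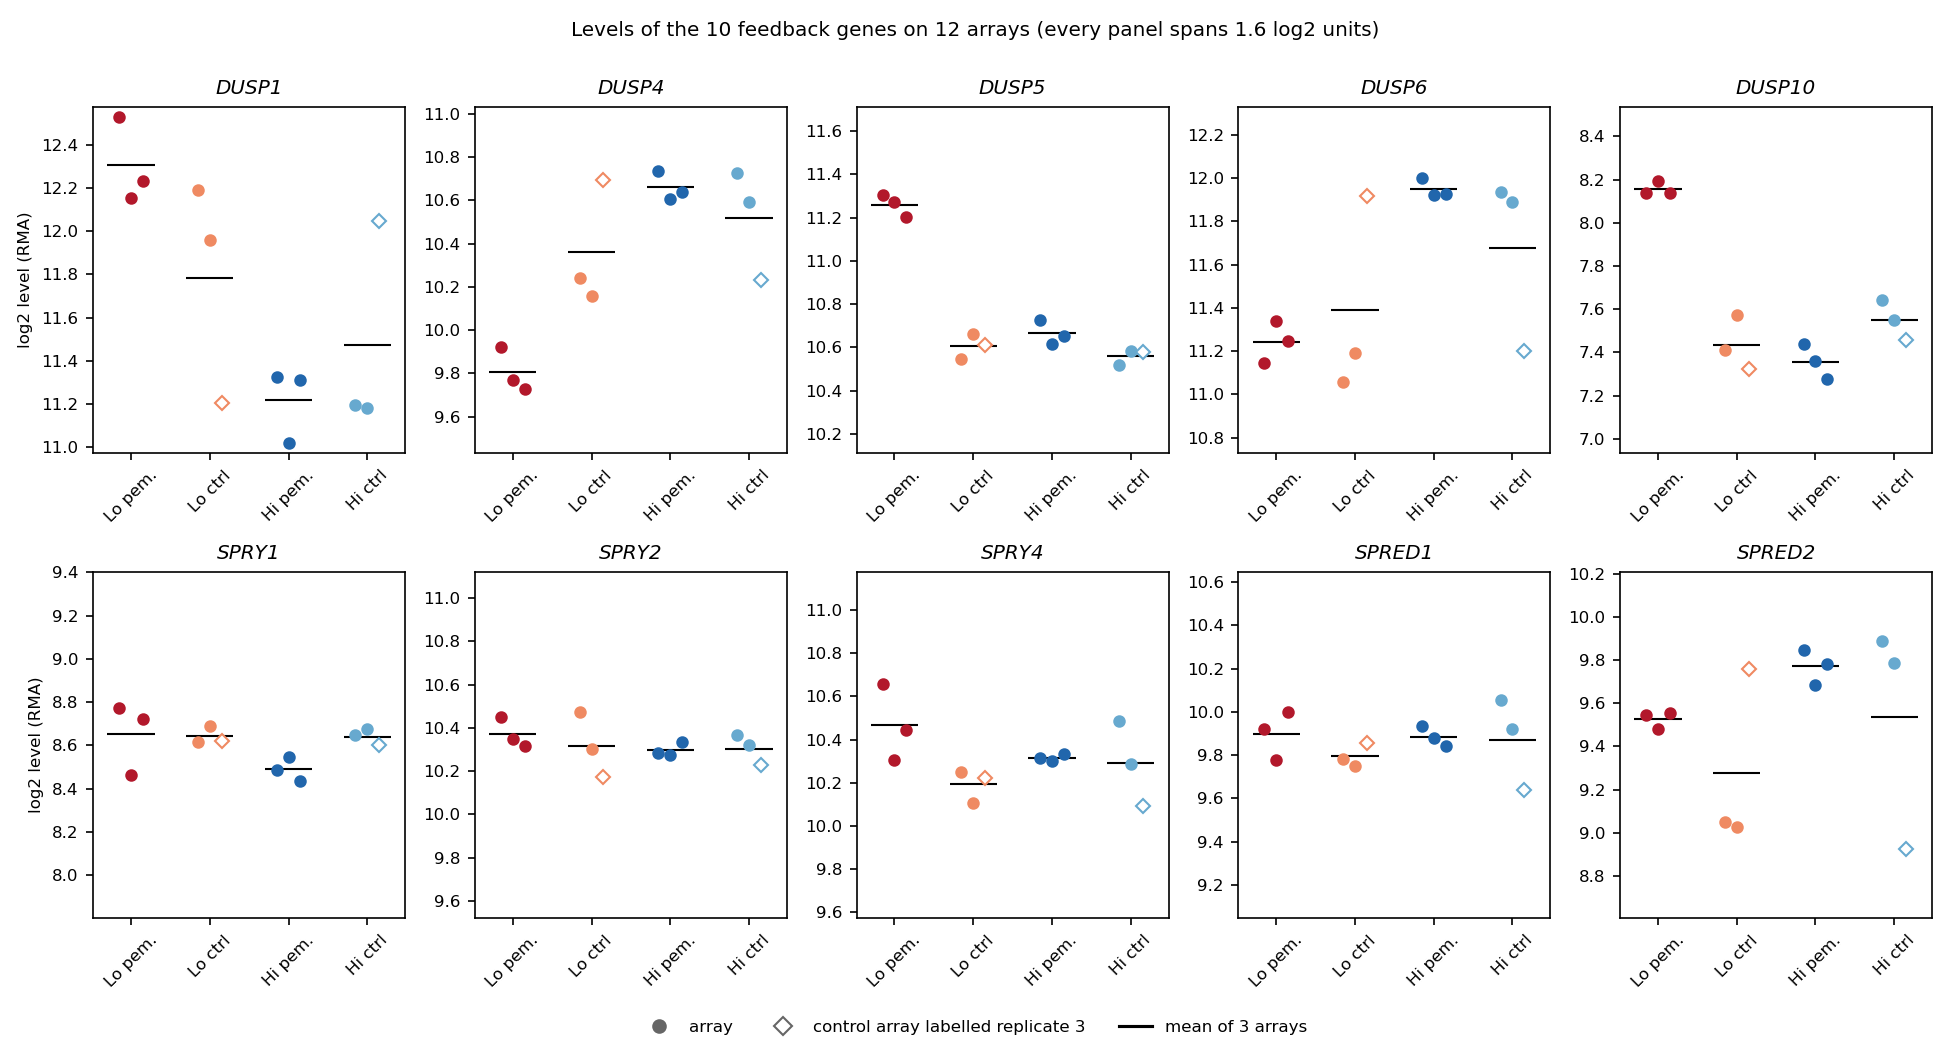
Log2 level of each gene (y axis, RMA values) on each of the 12 arrays, by group along the x axis. Points are arrays, open diamonds are the control arrays labelled replicate 3, and bars are means of 3 arrays. DUSP5 and DUSP10 stand higher on the 3 Lo pemetrexed arrays than on all others, while for DUSP1, DUSP4, DUSP6 and SPRED2 each open diamond lies with the controls of the other folate level.

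The first comparison asked how low-folate cells responded to the drug. In Lo pemetrexed against Lo control cells the phosphatase genes DUSP10 and DUSP5 rose and DUSP4 fell, while none of the Sprouty and SPRED genes passed the test with 12 arrays. DUSP10, the phosphatase of p38 and JNK, had log2 levels of 8.14, 8.19 and 8.14 in Lo pemetrexed cells, against 7.41, 7.57 and 7.32 in Lo control cells (replicates 1 to 3). The groups did not overlap, and DUSP10 rose by 0.72 ± 0.08 (SE) on the log2 scale, 1.65-fold (limma, Benjamini-Hochberg adjusted p = 0.000164 over all genes). DUSP5, the nuclear ERK phosphatase, had 11.30, 11.27 and 11.20 in Lo pemetrexed cells, against 10.55, 10.66 and 10.61 in Lo control cells. Here too every treated array lay above every control array. The rise of DUSP5 was 0.652 ± 0.065, 1.57-fold (limma adjusted p = 6.21e-05). With 10 arrays the rises were 0.66 ± 0.08 for DUSP10 and 0.65 ± 0.08 for DUSP5 (limma adjusted p = 0.000258 and 0.000178).

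DUSP4, a nuclear phosphatase of ERK, p38 and JNK, went the other way. Its levels were 9.92, 9.77 and 9.73 in Lo pemetrexed cells, against 10.24, 10.16 and 10.69 in Lo control cells. All treated arrays lay below all controls, of which the one labelled replicate 3 was highest. The difference was -0.56 ± 0.14 with 12 arrays and -0.39 ± 0.08 with 10 (limma adjusted p = 0.0254 and 0.0101). The call for DUSP4 was lost without the array labelled Lo control 3, without Lo pemetrexed 2 or without Lo pemetrexed 3 (limma adjusted p = 0.0901, 0.0781 and 0.0946).

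The remaining phosphatases, DUSP1 and DUSP6, did not pass in low-folate cells. DUSP1, an immediate early gene, had 12.53, 12.16 and 12.23 in Lo pemetrexed cells, against 12.19, 11.96 and 11.20 in Lo control cells, and the groups overlapped. Its difference was 0.520 ± 0.255 with 12 arrays and 0.23 ± 0.13 with 10 (limma adjusted p = 0.247 and 0.323). DUSP6, the cytoplasmic ERK phosphatase, had 11.15, 11.34 and 11.25 in Lo pemetrexed cells, against 11.06, 11.19 and 11.92 in Lo control cells. The treated arrays of DUSP6 fell inside the range of the controls, and the difference was -0.14 ± 0.21 with 12 arrays and 0.12 ± 0.08 with 10 (limma adjusted p = 0.766 and 0.44). Its 95% confidence interval ran from -0.60 to 0.32 with 12 arrays.

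SPRED2, a membrane inhibitor of Ras signalling, gave a call with 10 arrays and not with 12. Its levels were 9.55, 9.48 and 9.56 in Lo pemetrexed cells, against 9.05, 9.03 and 9.76 in Lo control cells. The treated arrays lay between the first 2 controls and the array labelled Lo control 3. With 12 arrays the difference was 0.25 ± 0.23 (limma adjusted p = 0.592), and with 10 arrays SPRED2 rose by 0.49 ± 0.08 (limma adjusted p = 0.00133). SPRY4 had 10.66, 10.31 and 10.44 in Lo pemetrexed cells, against 10.25, 10.11 and 10.22 in Lo control cells. Its groups did not overlap, yet its difference of 0.277 ± 0.105 did not pass (limma adjusted p = 0.125 with 12 arrays and 0.102 with 10), and it passed with 10 arrays and the replicate number as a block (0.29 ± 0.08, limma adjusted p = 0.0269). SPRY1 (0.01 ± 0.08), SPRY2 (0.055 ± 0.081) and SPRED1 (0.10 ± 0.10) differed by about a standard error or less. The 95% confidence intervals ran from -0.17 to 0.19 for SPRY1, from -0.12 to 0.23 for SPRY2 and from -0.11 to 0.32 for SPRED1.

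In all, 3 of the 10 genes were called, 2 higher and 1 lower, where 10.7% of all 18417 genes were called, and 4 of 10 with 10 arrays, where 11.0% were. Groups did not overlap for 4 of the 10, against 29.8% of all genes. The median difference of the 10 genes was 0.18, and that of all genes 0.02.

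**Figure D2:**
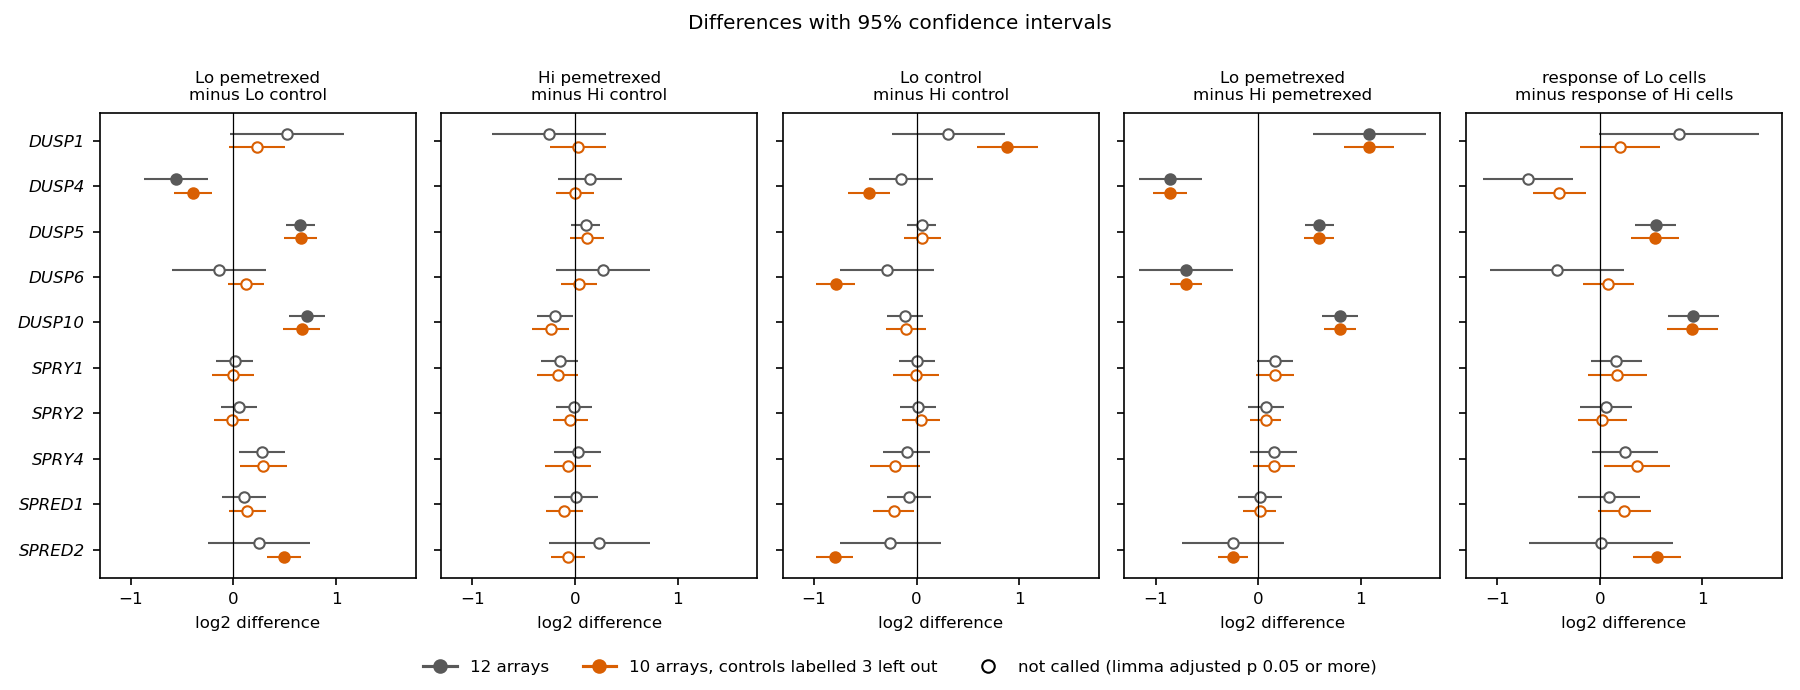
Log2 difference (x axis) of each gene (y axis) in 5 comparisons, with 95% confidence intervals from limma, for 12 arrays and for the 10 left without the control arrays labelled 3. Filled points passed limma's test after Benjamini-Hochberg adjustment. DUSP5 and DUSP10 are called with either set of arrays in Lo pemetrexed against Lo control, while the Lo control against Hi control calls of DUSP1, DUSP4, DUSP6 and SPRED2 appear with 10 arrays.

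The same exposure was compared in folate-replete cells. Between Hi pemetrexed and Hi control arrays no gene of the 10 was called by limma, nor was any of the 18417 genes (0.0%), with 12 arrays or with 10. At an unadjusted p under 0.05 there were 266 of the 18417 genes with 12 arrays and 335 with 10. Both counts are smaller than this threshold would give on average if no gene differed. DUSP10 was the only one of the 10 genes among them in both. DUSP10 had 7.44, 7.36 and 7.28 in Hi pemetrexed cells, against 7.65, 7.55 and 7.46 in Hi control cells. The treated arrays were the lower ones without overlap, the opposite direction to low-folate cells, at -0.19 ± 0.08 (limma adjusted p = 1.0). DUSP5 had 10.73, 10.62 and 10.65 in Hi pemetrexed cells, against 10.52, 10.58 and 10.58 in Hi control cells, a difference of 0.105 ± 0.065 that did not pass (limma adjusted p = 1.0). DUSP4 had 10.74, 10.61 and 10.64 in Hi pemetrexed cells, against 10.73, 10.59 and 10.23 in Hi control cells, and the groups overlapped. For DUSP4 with 10 arrays the 95% confidence interval ran from -0.18 to 0.19. SPRY1 lay between 8.43 and 8.55 in Hi pemetrexed cells, against 8.60 to 8.67 in Hi control cells, and did not pass (-0.15 ± 0.08, limma adjusted p = 1.0). Groups did not overlap for these 3 of the 10 genes, DUSP5, DUSP10 and SPRY1, against 5.44% of all genes.

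Whether the 2 cultures responded differently was tested by subtracting the Hi response from the Lo response. For DUSP10 this interaction was 0.91 ± 0.11 log2 units (limma adjusted p = 0.00109) and for DUSP5 it was 0.55 ± 0.09 (limma adjusted p = 0.00588). With 10 arrays the values were 0.90 ± 0.11 and 0.54 ± 0.11 (limma adjusted p = 0.0011 and 0.0145). These were the 2 genes of the 10 called with 12 arrays, where 4.81% of all genes were. DUSP4 had -0.70 ± 0.20 and did not pass (limma adjusted p = 0.0687). It passed without Hi control replicate 1 (-0.805, limma adjusted p = 0.0434), and did not with 10 arrays (-0.39 ± 0.12, limma adjusted p = 0.102) unless the replicate number was a block (limma adjusted p = 0.0182). SPRED2 had an interaction of 0.01 ± 0.32 with 12 arrays and of 0.555 ± 0.107 with 10, where it passed (limma adjusted p = 0.989 and 0.0132). With 10 arrays 3 of the 10 genes were called, where 4.16% of all genes were. The interactions of DUSP1 (0.775 ± 0.361) and DUSP6 (-0.42 ± 0.30) did not pass, and with 10 arrays they were 0.20 ± 0.18 and 0.08 ± 0.11.

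Low-folate and folate-replete cells were also compared without drug. With all 12 arrays neither the 10 genes nor any other gene was called between Lo control and Hi control arrays by limma (0.0%), and 387 genes had an unadjusted p under 0.05, none of the 10 among them. In these 6 arrays the 2 that stood apart lie on opposite sides. DUSP1 had 12.19, 11.96 and 11.20 in Lo control cells, against 11.20, 11.18 and 12.05 in Hi control cells. DUSP6 had 11.06, 11.19 and 11.92 in Lo control cells, against 11.94, 11.89 and 11.20 in Hi control cells. For both genes the value labelled replicate 3 of each group lay within 0.08 of the mean of the other culture's controls labelled 1 and 2. SPRED2 had 9.05, 9.03 and 9.76 in Lo control cells, against 9.89, 9.79 and 8.93 in Hi control cells, and DUSP4 showed the same arrangement. With 10 arrays, which leaves 2 in each control group, DUSP1 was higher in Lo cells by 0.89 ± 0.14, and DUSP6 (-0.79 ± 0.09), SPRED2 (-0.80 ± 0.08) and DUSP4 (-0.46 ± 0.09) were lower (limma adjusted p = 0.00194, 0.000194, 0.000121 and 0.0094). These 4 of 10 genes compare with 7.17% of all genes called in that fit. Both arrays were left out because their values lay near the other culture, which by itself widens these differences and narrows the spread. The spread within groups of these genes depended on the 2 arrays: the residual SD of DUSP6 was 0.314 with 12 arrays and 0.072 with 10, that of SPRED2 0.339 and 0.061, and that of DUSP1 0.381 and 0.165, where the median of all genes was 0.115 and 0.101. For DUSP5 the residual SD was 0.051 with 12 arrays and 0.058 with 10.

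The comparison of treated cells, Lo pemetrexed against Hi pemetrexed, uses neither of these arrays for its means, although they enter the shared estimate of the spread. DUSP1 had 12.53, 12.16 and 12.23 in Lo pemetrexed cells, against 11.33, 11.02 and 11.31 in Hi pemetrexed cells, higher by 1.084 ± 0.255 or 2.12-fold (limma adjusted p = 0.00907). DUSP6 had 11.15, 11.34 and 11.25 in Lo pemetrexed cells, against 12, 11.92 and 11.93 in Hi pemetrexed cells, lower by 1.63-fold (-0.71 ± 0.21, limma adjusted p = 0.0302). Every Lo pemetrexed array lay above every Hi pemetrexed array for DUSP1 and below every one for DUSP6. DUSP10 (0.80 ± 0.08) and DUSP5 (0.595 ± 0.065) were higher and DUSP4 (-0.86 ± 0.14) was lower, all without overlap (limma adjusted p = 5.65e-05, 9.27e-05 and 0.00129). The call of DUSP6 was lost when any 1 of the 6 treated arrays was left out (limma adjusted p from 0.0584 to 0.0913), and held with 10 arrays (-0.71 ± 0.07, limma adjusted p = 1.42e-05). With 10 arrays the calls of DUSP1, DUSP4, DUSP5 and DUSP10 also held, and the SE of DUSP1 was 0.11. SPRED2 had 9.55, 9.48 and 9.56 in Lo pemetrexed cells, against 9.85, 9.68 and 9.78 in Hi pemetrexed cells. Its difference of -0.24 did not pass with an SE of 0.23 from 12 arrays and passed with an SE of 0.07 from 10 (limma adjusted p = 0.533 and 0.0176). SPRY1, SPRY2, SPRY4 and SPRED1 did not pass, with differences from 0.015 to 0.164, and SPRY1 passed without Lo pemetrexed replicate 2 (0.26, limma adjusted p = 0.0307). With 12 arrays 5 of the 10 genes were called, where 22.3% of all genes were, and with 10 arrays 6 of 10, where 27.7% were. Groups did not overlap for 6 of the 10, against 37.3% of all genes.

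Set over the 4 groups, the phosphatases took 3 kinds of order, given here from the means of 3 arrays as a description. DUSP5 and DUSP10 were highest in Lo pemetrexed cells, at 11.26 ± 0.05 and 8.16 ± 0.03 (SD, n = 3), while their other groups lay between 10.56 and 10.66 for DUSP5 and between 7.36 and 7.55 for DUSP10 and neighbouring ones differed by amounts close to their SDs or within them. DUSP4 was lowest in Lo pemetrexed cells (9.81 ± 0.10), followed by Lo control (10.36 ± 0.29), Hi control (10.52 ± 0.25) and Hi pemetrexed cells (10.66 ± 0.07), and the last 3 overlapped. DUSP6 ran in the same order with 12 arrays, at 11.24 ± 0.09, 11.39 ± 0.46, 11.68 ± 0.41 and 11.95 ± 0.04, and neighbours overlapped. Without the control arrays labelled 3, Lo control cells were the lowest for DUSP6. Lo pemetrexed minus Lo control was then 0.12 ± 0.08 (SE). DUSP1 ran from Hi pemetrexed (11.22 ± 0.17) and Hi control (11.48 ± 0.50) to Lo control (11.78 ± 0.52) and Lo pemetrexed cells (12.30 ± 0.20), and neighbours in that order overlapped. With 10 arrays Hi pemetrexed minus Hi control was 0.03 ± 0.13 (SE) for DUSP1 and 0.001 ± 0.084 (SE) for DUSP4. The order of the Hi groups for these genes therefore also rested on the arrays labelled 3. SPRY1 and SPRY2 had the narrowest ranges of the 10 genes: all 12 values of SPRY1 lay between 8.43 and 8.77 and those of SPRY2 between 10.17 and 10.47.

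The promoter windows of the phosphatases DUSP1, DUSP10 and DUSP6 are shown because in Lo against Hi pemetrexed cells DUSP1 and DUSP10 were higher and DUSP6 was lower. DUSP4 and DUSP5 were also called in that comparison, but no window was found for them. The sequences are from RefSeq (GRCh38.p14) and cover 250 bases before to 50 after the annotated start, on the minus strand, at chr5:172771146-172771445 for DUSP1, chr1:221742040-221742339 for the outermost start of DUSP10 and chr12:89352452-89352751 for DUSP6. Capitals mark matches on either strand to the cyclic AMP response element core TGACG, the AP-1 motif TGANTCA, the ETS motif CCGGAAG, the E-box CACGTG, the TATA box TATAAA, the CCAAT box and the CArG box.
DUSP1: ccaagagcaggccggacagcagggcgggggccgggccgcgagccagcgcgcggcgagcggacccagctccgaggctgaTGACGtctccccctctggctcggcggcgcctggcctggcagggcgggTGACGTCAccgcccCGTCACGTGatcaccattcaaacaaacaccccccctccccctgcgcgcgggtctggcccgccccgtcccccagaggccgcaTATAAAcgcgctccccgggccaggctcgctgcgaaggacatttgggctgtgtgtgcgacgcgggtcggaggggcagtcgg
DUSP10: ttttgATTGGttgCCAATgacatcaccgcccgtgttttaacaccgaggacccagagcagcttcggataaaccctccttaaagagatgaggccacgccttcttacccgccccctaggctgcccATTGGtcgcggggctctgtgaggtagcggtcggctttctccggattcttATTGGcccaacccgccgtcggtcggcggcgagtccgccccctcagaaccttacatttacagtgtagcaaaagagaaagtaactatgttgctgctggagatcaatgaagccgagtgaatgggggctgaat
DUSP6: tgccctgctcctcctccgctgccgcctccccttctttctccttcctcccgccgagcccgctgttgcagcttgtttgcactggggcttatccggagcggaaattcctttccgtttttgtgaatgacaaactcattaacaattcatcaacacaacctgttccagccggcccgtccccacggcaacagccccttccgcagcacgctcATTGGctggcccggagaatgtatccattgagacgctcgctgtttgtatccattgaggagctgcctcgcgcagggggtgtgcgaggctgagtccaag
The DUSP1 window held 4 matches to TGACG, 2 of them overlapping as the palindrome TGACGTCA and 1 overlapping an E-box, and a TATA box 30 bases before the start. Of all 35116 windows of this length 24.6% held TGACG, 0.313% held it at least 4 times, 1.85% held the palindrome, 7.26% the E-box and 11.5% the TATA box. The DUSP10 window held 4 CCAAT boxes, 3 of them read on the opposite strand, and the DUSP6 window 1, where 34.6% of windows held the box and 0.991% at least 4. AP-1 (7.71% of windows), ETS (10.3%) and CArG (1.29%) matches were not in these 3 windows. Windows were found for 8 of the 10 genes, several of which have more than 1 annotated start. The window of another DUSP10 start, at chr1:221736851-221737150 and not shown, held 0 CCAAT boxes and 1 match to TGACG.

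**Figure D3:**
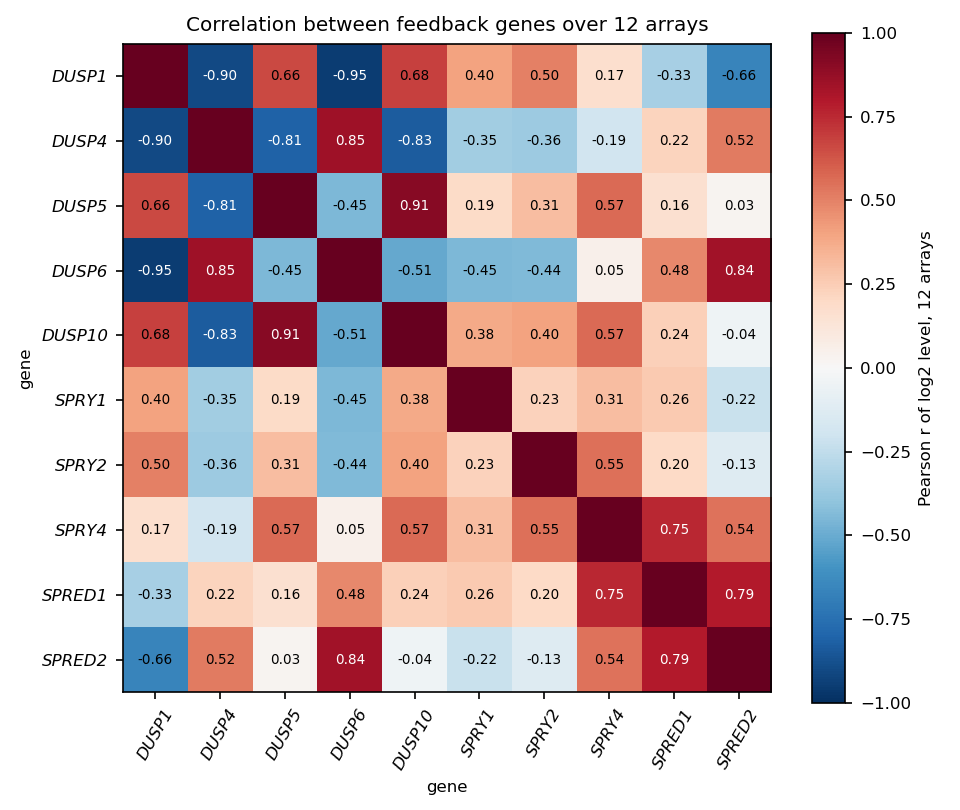
Pearson correlation of log2 levels between the 10 genes over all 12 arrays (colour scale from -1 to 1, values printed in the cells). DUSP5 and DUSP10 correlate at 0.91, and DUSP1 is opposed to DUSP6 at -0.95.

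Over the 12 arrays, which share groups and the 2 arrays that stood apart but need no label, DUSP1, DUSP5 and DUSP10 ran opposite to DUSP4, and DUSP1 also to DUSP6. DUSP1 and DUSP6 correlated at r = -0.95 and DUSP1 and DUSP4 at r = -0.90, while DUSP4 and DUSP6 correlated at r = 0.85 and DUSP6 and SPRED2 at r = 0.84. DUSP5 and DUSP10 correlated at r = 0.91, and with DUSP4 at r = -0.81 and r = -0.83. SPRED1 correlated with SPRED2 at r = 0.79 and with SPRY4 at r = 0.75. These values are descriptions of 12 arrays that fall into separate groups and carry no test.

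The genes most like the 3 phosphatases with the smallest interaction p were named by correlation over the same 12 arrays. For DUSP10 they were the growth factor gene TGFA and the kinase STK17A (r = 0.967 each), the stress transcription factor ATF3 (r = 0.964) and the receptor TNFRSF9 (r = 0.963). For DUSP5 they were ARG2, a mitochondrial arginase (r = 0.986), PPP1R15A, the stress-induced phosphatase subunit for the translation factor eIF2 (r = 0.978), and SESN2 and FICD (r = 0.975 each). In Lo pemetrexed against Lo control cells these genes differed by between 0.56 (STK17A) and 1.33 (ARG2), and in Hi cells by between -0.25 (ATF3) and 0.10 (PPP1R15A). Since they were picked for likeness over the same arrays, a rise in Lo cells with little change in Hi cells follows from the choice. For DUSP4 they were SHROOM2 (r = 0.994), HYAL2 (r = 0.993), PTMS (r = 0.992) and the cell cycle phosphatase CDC25B (r = 0.992).

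**Figure D4:**
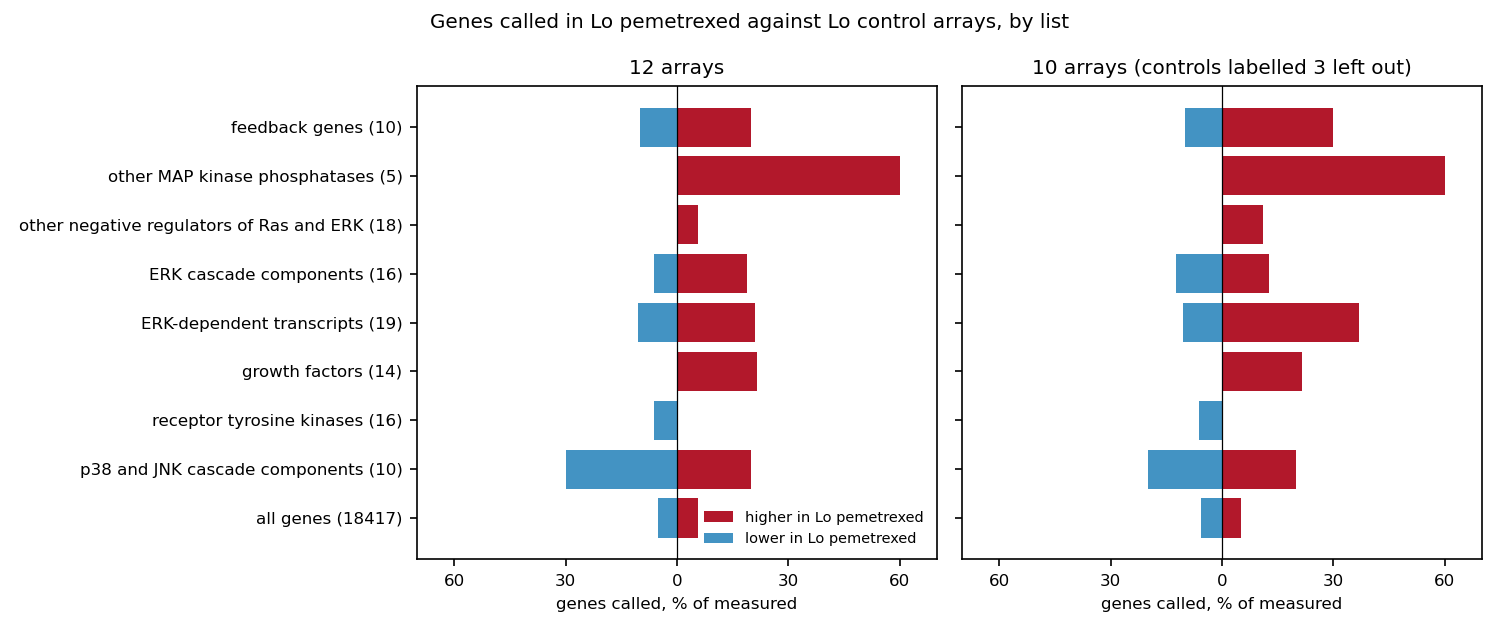
Genes called higher (right) or lower (left) in Lo pemetrexed against Lo control arrays as a percentage of the measured genes of each list (x axis), with the number measured in parentheses, for 12 arrays and for 10. The bottom bar gives all genes, 5.6% higher and 5.14% lower with 12 arrays, and 5.21% higher and 5.74% lower with 10.

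Other genes of the pathway were taken from lists made with earlier results of these data known. Of the 5 other MAP kinase phosphatases of this class, all measured, 3 rose in Lo pemetrexed cells and 0 fell with either set of arrays, with a median of 0.39 with 12. DUSP8, a phosphatase of p38 and JNK, lay between 8.46 and 8.82 in Lo pemetrexed cells, against 7.96 to 8.10 in Lo control cells (0.59 ± 0.10, limma adjusted p = 0.00169). DUSP7, an ERK phosphatase, lay between 12.42 and 12.65, against 11.89 to 12.12 in Lo control cells (0.47 ± 0.09, limma adjusted p = 0.00585). DUSP16, a phosphatase of JNK and p38, lay between 8.98 and 9.02, against 8.52 to 8.75 in Lo control cells (0.39 ± 0.12, limma adjusted p = 0.0481). For DUSP2 the groups overlapped, at 7.83 to 7.99 in Lo pemetrexed cells and 7.72 to 7.93 in Lo control cells, as they did for DUSP9. The interaction of DUSP8 passed with 12 arrays (0.54 ± 0.14, limma adjusted p = 0.0403) and not with 10 (0.0798). With 12 arrays 5 of the 10 phosphatases of this class, DUSP5, DUSP7, DUSP8, DUSP10 and DUSP16, were called higher in treated low-folate cells and DUSP4 lower. Of all genes 5.6% were called higher and 5.14% lower. The calls of DUSP16 and DUSP4 were the weakest of these.

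Of 18 measured other negative regulators of Ras and ERK, 1 rose and 0 fell in Lo pemetrexed against Lo control cells, with a median of -0.01. The 1 was the Sprouty gene SPRY3 (0.35 ± 0.08, limma adjusted p = 0.0177). With 10 arrays the EGF receptor inhibitor ERRFI1 also rose (0.38 ± 0.11, limma adjusted p = 0.041). Of 16 measured components of the ERK cascade 3 rose and 1 fell. RPS6KA1, a kinase activated by ERK, rose by 1.09 ± 0.13 and its relative RPS6KA2 fell by 1.09 ± 0.31 (limma adjusted p = 0.000269 and 0.0382, with 10 arrays 0.96 ± 0.10 and -0.70 ± 0.08). HRAS rose by 0.50 ± 0.08, and the MEK gene MAP2K1 rose by 0.35 ± 0.10 with 12 arrays but did not pass with 10 (limma adjusted p = 0.00221, 0.0486 and 0.144).

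Of 19 measured transcripts that depend on ERK in other cells, 4 rose and 2 fell, with a median of 0.10. The transcription factor genes EGR1 (2.04 ± 0.28) and FOS (1.09 ± 0.13) rose, and EMP1, a membrane protein gene (-0.84 ± 0.12), and the ETS factor ETV1 (-0.59 ± 0.12) fell (limma adjusted p = 0.000607, 0.000248, 0.000675 and 0.00753). With 10 arrays 7 rose and 2 fell. Of 14 growth factor genes 3 rose and 0 fell, VEGFA (0.85 ± 0.10), TGFA (0.58 ± 0.07) and HBEGF (1.06 ± 0.26), of which TGFA and HBEGF encode ligands of the EGF receptor. Of 16 receptor tyrosine kinases 0 rose and 1 fell, the angiopoietin receptor TEK (-0.65 ± 0.09). Of 10 measured p38 and JNK cascade genes 2 rose, JUN (0.46 ± 0.07) and the p38 kinase kinase MAP2K3 (0.46 ± 0.11), and 3 fell, including MAP2K6 (-0.49 ± 0.12) and MAP3K5 (-0.56 ± 0.14). These shares stand beside 5.6% of all genes called higher and 5.14% called lower.

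In untreated cells every pathway list had 0 calls with 12 arrays. With 10 arrays 4 of the 16 cascade genes were lower in Lo control than in Hi control cells and 0 higher, among them the docking protein gene GAB1 (-1.13 ± 0.12) and RPS6KA2 (-1.10 ± 0.08), named after their values were seen. In the same fit 4 of 14 growth factor genes were higher and 0 lower, among them FGF1 (2.30 ± 0.24) and HBEGF (0.90 ± 0.14). Among 16 receptor tyrosine kinases 1 was lower in Lo control cells, the VEGF receptor KDR (-1.97 ± 0.17). Another 3 were higher, EGFR (0.55 ± 0.14), AXL (0.59 ± 0.10) and a further VEGF receptor, FLT1 (0.48 ± 0.09). For the ERK-dependent transcripts 3 were higher and 3 lower. In that fit 3.67% of all genes were called higher and 3.5% lower.

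Endothelial markers moved with the same groups. The mean log2 level of the 10 markers lay between 9.83 and 9.98 in Lo pemetrexed, 10.18 and 10.86 in Lo control, 10.80 and 11.03 in Hi pemetrexed, and 10.22 and 11.05 in Hi control cells. Without the arrays labelled 3 the ranges were 10.18 to 10.26 in Lo control and 10.83 to 11.05 in Hi control cells. Of the 10 markers 4 fell and 0 rose in Lo pemetrexed against Lo control cells (5 and 0 with 10 arrays), where 5.14% of all genes were called lower. Between Lo pemetrexed and Hi pemetrexed cells 8 of the 10 were lower and 0 higher, where 11.0% of all genes were called lower and 11.3% higher. The means of 6 epithelial markers lay between 8.20 and 8.36 on all arrays, of 7 fibroblast and smooth muscle markers between 6.81 and 7.07, and of 5 leukocyte markers between 6.03 and 6.22. None of these was called in Lo pemetrexed against Lo control cells, but in Lo against Hi pemetrexed cells 1 epithelial marker, EPCAM (0.38), and 1 smooth muscle marker, ACTA2 (0.815), were higher (limma adjusted p = 0.037 and 0.00254). The part of these marker shifts in the differences of the feedback genes was not tested.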

How the data were processed

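The deposited table holds log2 expression values per probe set, which the authors made by robust multi-array averaging (RMA) with Partek 6.5 (per the submitters' processing notes). Which RMA settings were used is not given in the sources used here. It held 33297 probe sets on 12 arrays, with array medians from 7.24 to 7.33. Symbols were taken from GEO's platform annotation and updated through RefSeq by Entrez identifier. It gave 19460 probe sets 1 symbol, which were used, and 1754 several, and did not list 12083. Listed genes that lacked one are not analysed here. No filter was applied.

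All genes and arrays entered 1 limma fit (version 3.58.1, R 4.3.3) with 4 group means, followed by eBayes. Tests were two-sided, Benjamini-Hochberg adjustment ran over the 18417 genes of each contrast, and calls required an adjusted p under 0.05. Errors after ± with a difference are standard errors. The fit was tested on simulated data. All 10 genes are named whatever their p, and from each pathway list up to 4 called genes with the smallest p in Lo cells and up to 3 in other contrasts. Genes and lists were chosen with earlier results of these data known. Comparisons that share an arm use the same arrays. Every p-value rests on the variation among replicate cultures of a single line. The alternatives left out arrays, added a replicate block or a mean-variance trend, filtered dim genes, averaged probe sets, centred arrays or used only the arrays compared.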

Additional observations from a re-analysis of the deposited data

Results flagged for a closer look

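For 2 of the 10 genes the response to pemetrexed differed between the cultures in the test of the difference itself. The Lo response minus the Hi response was 0.91 log2 units for DUSP10, whose differences had opposite signs (0.72 in Lo and -0.19 in Hi cells), and 0.55 for DUSP5, whose differences were both positive (limma, Benjamini-Hochberg adjusted p = 0.00109 and 0.00588). All 3 Lo pemetrexed arrays lay above all Lo control arrays for both genes. In Hi cells the 3 treated arrays lay below the controls for DUSP10 and above them for DUSP5. Neither Hi difference was called, nor was any of the 18417 genes in that comparison. Groups did not overlap for 29.8% of all genes in Lo cells and for 5.44% in Hi cells. Both calls were kept under all 19 alternatives, with limma adjusted p from 0.000351 to 0.00489 for DUSP10 and from 0.00547 to 0.0215 for DUSP5.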

How the results depend on the processing

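The counts were recomputed with the replicate number as a block, since groups share these numbers. With 12 arrays 11 of 18 same-numbered pairs had deviations correlating above 0.1 (from -0.656 to 0.514), against 10 of 36 pairs with different numbers. The main fit did not take the numbers as pairs. With 12 arrays the block called 3, 0, 0, 5 and 2 of the 10 genes in Lo cells, Hi cells, controls, treated cells and the interaction, as without it. With 10 arrays all 13 same-numbered pairs correlated above 0.1 (from 0.115 to 0.543), against 6 of 24 with different numbers. The 2 arrays left in each control group deviate from their mean by equal and opposite amounts, so these pairs are not independent. A positive correlation with 1 control array then forces a negative one with the other. This contrast is partly set by arithmetic and cannot show how far the numbers mark shared variation. Any such variation was left out of fits without the block. The block with 10 arrays called 5 genes in Lo cells, 4 in controls and 4 in the interaction. Of all genes it called 3385, 2422, 6554 and 1738 in Lo cells, controls, treated cells and the interaction. The fit of 10 arrays without the block called 4 of the 10 genes and 1320 of all genes in controls, against 0 with 12. Leaving out single arrays gave 1170 to 2563 calls of all genes in Lo cells and 443 to 956 in the interaction, against 1978 and 886. The first count moved by over 1.5 times without Lo control 3, Lo pemetrexed 1 or 3 (1210, 1282, 1170), and the second without Hi pemetrexed 2 or 3, Lo control 3 or Lo pemetrexed 1, 2 or 3 (506, 539, 572, 568, 584, 443). Of 990 alternative values of the 10 genes 962 kept their side of the threshold, 19 gained a call and 9 lost one, those of DUSP4 in Lo cells and DUSP6 in treated cells. No called value changed sign, while 49 values that were not called did. Part of these alternatives could not move a difference. Each of the 10 genes had a single probe set to average, and leaving out an array outside a comparison kept its log2 difference as it was. The counts of pathway genes with 10 arrays were added after the data were seen. Arrays number 3 a group, or 2 for controls without the arrays that stood apart, which limits every interval.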
